A study of Mus musculus with 6 samples.

Results

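Tight junctions seal the space between neighbouring epithelial cells, and here 9 genes that encode their parts in the epidermis were followed in keratinocytes with and without iASPP, the p53-family inhibitor encoded by Ppp1r13l. The 9 genes were chosen by name, with earlier results of these data known. They are the claudins Cldn1, Cldn4, Cldn7, Cldn8 and Cldn12, the membrane protein gene Ocln, and the scaffold genes Tjp1, Tjp3 and Cgn. They are 9 of 55367 genes in the count table, and all 9 were among the 14916 genes with enough counts to be tested. The libraries were 3 iASPP KO and 3 iASPP WT, with 1 of each in batches 1, 2 and 3 of the labels, and the question was which genes respond when iASPP is lost. All 6 came from primary keratinocytes of day-2 mouse pups on a mixed C57BL/6 and 129/Sv background that carried Ppp1r13lflox/flox;Cre+ERT, an allele pair that a tamoxifen-activated Cre can delete. The cells grew on collagen in a low-calcium medium for 4 days. The medium was changed after 24 h, with tamoxifen for iASPP KO and without it for iASPP WT, so the drug and the deletion cannot be told apart, and all controls carried the undeleted floxed allele and the Cre. The Cre-ERT sits at the ROSA26 locus, which is active in most cell types, so deletion was not limited to keratinocytes by the driver. The sources used here do not say whether a batch was 1 pup or a pool. The p-values for genotype therefore measure the spread of the iASPP KO to WT difference over these 3 batches, not over a known number of pups.

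A tight junction is built from strands of claudins, small proteins with 4 membrane-spanning segments whose outer loops meet those of the next cell and set which ions and solutes pass. Occludin, from Ocln, and related proteins join the strands. On the inner side, scaffolds of the zonula occludens family (Tjp1 for ZO-1, Tjp3 for ZO-3) and cingulin (Cgn) tie the strands to actin and myosin. In the epidermis functional tight junctions lie in the granular layer, and claudin-1 is required there to hold water in. Assembly of the junction needs calcium, which was kept low in this medium, and RNA libraries report transcripts and not assembled junctions.

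Cldn4 and Cldn1 carried most of the counts of the 9 genes, and their promoters are shown here because the results turn on these 2 claudins. RefSeq promoter windows were found by gene name for 8 of the 9 genes, on build GRCm38.p6, and were not used for Cldn8. For Tjp1 the start of the window was not found near the start of a protein-coding GENCODE vM21 transcript of the gene. Each sequence is the 250 bases before the start of transcription, 5′ to 3′ on the gene's strand, from chr5:134946935-134947184 (minus strand) for Cldn4 and chr16:26371840-26372089 (minus strand) for Cldn1. Capitals mark the AP-1 motif TGANTCA, which reads the same on both strands.
Cldn4: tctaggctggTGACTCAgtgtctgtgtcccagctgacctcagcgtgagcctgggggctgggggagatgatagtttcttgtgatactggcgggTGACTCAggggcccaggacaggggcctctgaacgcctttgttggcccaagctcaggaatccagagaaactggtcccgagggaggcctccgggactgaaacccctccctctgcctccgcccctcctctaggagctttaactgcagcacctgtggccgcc
Cldn1: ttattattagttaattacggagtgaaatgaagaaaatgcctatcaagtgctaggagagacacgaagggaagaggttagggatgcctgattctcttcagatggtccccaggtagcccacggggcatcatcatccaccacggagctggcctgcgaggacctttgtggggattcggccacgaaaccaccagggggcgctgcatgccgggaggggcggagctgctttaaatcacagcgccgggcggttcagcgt
The Cldn4 window held the motif 2 times, as TGACTCA beginning 240 and 158 bases upstream of the start, and Cldn1 did not hold it. Cldn4 was the 1 gene of the 8 with a match. Windows were also found for Cldn3, Crb3, Cgnl1 and Magi3, junction genes outside the 9 that were called higher in iASPP KO (below). None of these held the motif, and the start of the Magi3 window, like that of Tjp1, was not found near a transcript start. Of 32817 promoter windows of the same length, 6.75% held the motif at least 1 time and 0.338% at least 2 times. The motif AACCGGTT, bound by Grainyhead-like factors that act in epidermal barrier formation, was found in 0.116% of windows and in none of the 8. A match is a description of the letters and not evidence that a factor binds.

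The libraries held 20202517 to 25157117 counts in genes. Ppp1r13l, the targeted gene, had 320, 395 and 139 counts in iASPP KO (batches 1 to 3) and 697, 1100 and 472 in iASPP WT. The log2 fold change was -1.45 (SE 0.18, adjusted p = 0.00296 in edgeR's quasi-likelihood test), so counts of the gene were reduced and not absent. Counts per gene do not show which exons the remaining transcript holds or whether it yields iASPP. The paper reports that immunofluorescence found no iASPP protein after tamoxifen. The cells expressed keratinocyte genes: Krt14 was at 15913 ± 1445 CPM (counts scaled by TMM to a common library size of 1000000, SD, n = 3) in iASPP KO and 16134 ± 1018 CPM in iASPP WT. Batch 3 stood apart: all 7 fibroblast markers were called between batches with batch 3 above batch 1, their summed level being 494 and 716 CPM there against 42.6 to 57.2 CPM in the other batches. Of 14 suprabasal or differentiated keratinocyte genes, 12 were called between batches with batch 3 below batch 1 (median log2 difference over the 14 genes -1.80). Among all tested genes 15.8% were called between batches, in any direction. Between genotypes, 8 of 10 proliferation genes were called lower in iASPP KO, and the differentiation list of 14 split into 2 higher and 3 lower. Of all tested genes 2.17% were called higher and 1.95% lower. DESeq2 also called 2 higher and 3 lower on the differentiation list, but not all the same genes. The fibroblast collagens Col1a2 and Col3a1 were called lower in iASPP KO (2 of 7 fibroblast markers) and the macrophage receptor gene Csf1r higher (1 of 5 tested leukocyte markers), and their part in the results below was not tested. Over 7 basal keratinocyte, 6 melanocyte, 3 endothelial, 5 simple-epithelium and 1 muscle marker that could be tested, edgeR called none, with 4 higher and 0 lower at an unadjusted p under 0.05, and DESeq2 called Krt18 of the simple-epithelium list higher (adjusted p = 0.0389). In bulk RNA, fewer cells of a type and less RNA per cell cannot be told apart.

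Per length of exon, the 9 transcripts spanned a wide range, and 2 claudins stood well above the rest. Over the 6 libraries Cldn4 was at 728 ± 311 CPM per kb (SD, n = 6) and Cldn1 at 160 ± 64.4 CPM per kb. Tjp1 at 19.9 ± 5.31, Ocln at 18.8 ± 6.13 and Cldn12 at 17.6 ± 2.99 CPM per kb formed a middle group. Cgn followed at 8.83 ± 2.14 CPM per kb. Cldn8 at 0.661 ± 0.720, Cldn7 at 0.596 ± 0.219 and Tjp3 at 0.178 ± 0.132 CPM per kb were near the limit of detection. Within single libraries, Cldn4 lay above Cldn1, Cldn1 above Tjp1, Cldn12 above Cgn and Cgn above Cldn8 in 6 of 6. The neighbours Tjp1 and Ocln (Tjp1 higher in 3 of 6), Ocln and Cldn12 (Ocln higher in 2 of 6) and Cldn8 and Cldn7 (Cldn8 higher in 3 of 6) had no fixed order. Cldn1 and Cldn4 together made up 76.4% to 87.0% of the counts of the 9 genes, which in turn made up 0.130% to 0.332% of a library.

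Of the 9 genes, Cldn4 alone passed the test of iASPP KO against iASPP WT and it was higher, while 8 did not pass and none was called lower. Among all tested genes 2.17% were called higher and 1.95% lower. At an unadjusted p under 0.05 edgeR gave 2 of 9 higher (Cldn1 and Cldn4) and 0 lower, and DESeq2 called 1 higher and 0 lower by adjusted p. The median log2 fold change was 0.20 over the 9 genes and 0.01 over all tested genes. Cldn1, Cldn4 and Tjp3 were higher in iASPP KO in all 3 batches, 3 of 9 genes against 19.5% of all tested genes. For none of the 9 did the levels of the 3 iASPP KO libraries clear those of the 3 iASPP WT libraries, a separation that 10.7% of tested genes had in either direction.

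**Figure D1:**
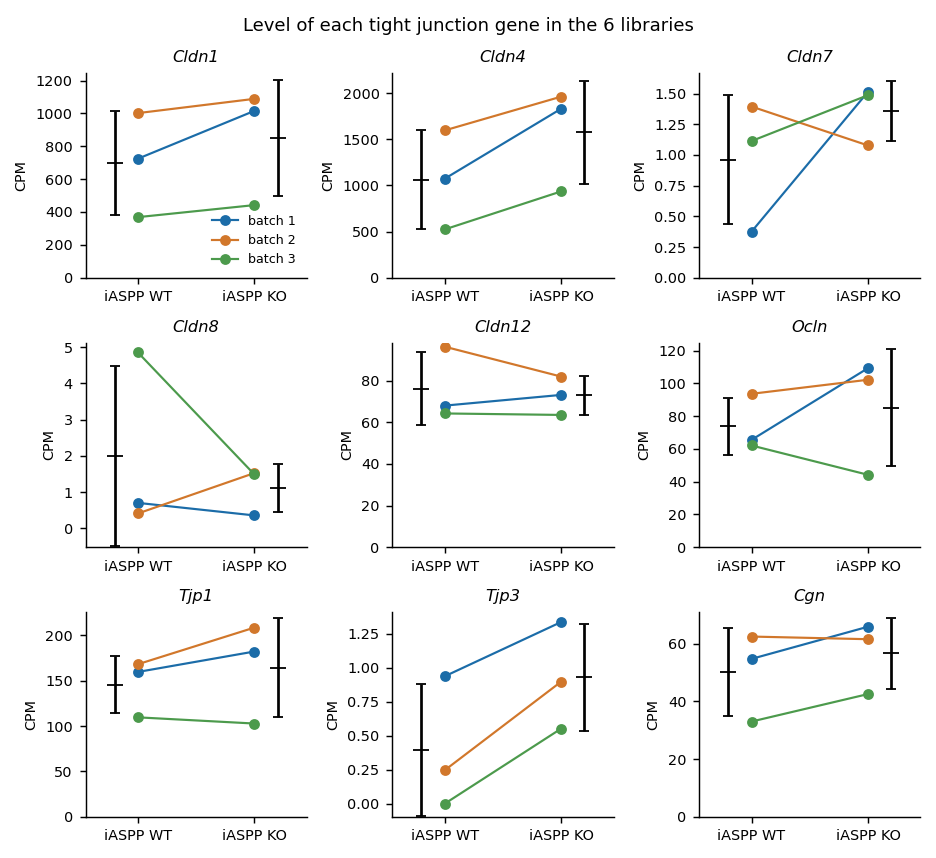
Level in CPM (linear axis) of each of the 9 genes in the 3 iASPP WT and 3 iASPP KO libraries, with libraries of a batch joined by a line and the mean ± SD of each group (n = 3) in black. Cldn4, Cldn1 and Tjp3 are higher in iASPP KO in all 3 batches, and the batch 3 points of Cldn4 and Cldn1 lie below those of the other batches.

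Cldn4 encodes claudin-4, a claudin of the upper epidermal layers and of many simple epithelia. Its level was 1833, 1964 and 936 CPM in iASPP KO (batches 1 to 3) and 1074, 1598 and 524 CPM in iASPP WT. The iASPP KO library was the higher in each batch, although the lowest iASPP KO library, that of batch 3, lay under the iASPP WT libraries of batches 1 and 2. The group means were 1578 ± 559 CPM and 1065 ± 537 CPM (SD, n = 3 each), and the model with batch gave a log2 fold change of 0.64 (SE 0.13, 95% interval 0.35 to 0.92, adjusted p = 0.0238, edgeR quasi-likelihood). Within batches the log2 differences were 0.77, 0.30 and 0.84. The call was lost without batch 1 (0.57, adjusted p = 0.111) and without the batch term (0.57, adjusted p = 0.977).

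Cldn1 encodes claudin-1, the claudin of the epidermal barrier. It stood at 1016, 1089 and 442 CPM in iASPP KO and at 724, 1002 and 369 CPM in iASPP WT. Its differences ran the same way as those of Cldn4 and were smaller, 0.49, 0.12 and 0.26 on the log2 scale in batches 1 to 3. The log2 fold change was 0.29 (SE 0.11, 95% interval 0.04 to 0.54) and did not pass after adjustment over all genes (adjusted p = 0.229).

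Measured within a library, the ratio of Cldn4 to Cldn1 was higher in each of the 3 iASPP KO libraries than in any of the 3 iASPP WT libraries. Per kb of exon it was 4.81, 4.81 and 5.65 in iASPP KO and 3.95, 4.25 and 3.79 in iASPP WT. The means were 5.09 ± 0.48 and 4.00 ± 0.23 (SD, n = 3 each), and the log2 difference by batch was 0.28, 0.18 and 0.58. An exact two-sided sign-flip permutation test over the 3 batches gave p = 0.25, the smallest p that 3 pairs allow, so it could not decide. The numerator is the gene already called higher, so the ratio is a description and not separate support for that call.

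**Figure D2:**
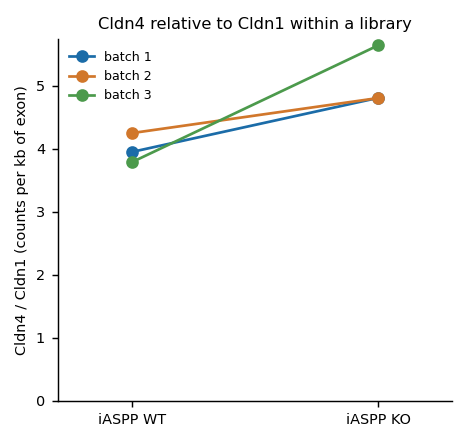
Ratio of Cldn4 to Cldn1, each in counts per kb of exon, in the 6 libraries (linear axis from 0), with libraries of a batch joined by a line. The 3 iASPP KO ratios, 4.81 to 5.65, lie above the 3 iASPP WT ratios, 3.79 to 4.25.

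The other claudins of the set did not pass. Cldn12, a widely expressed claudin, was at 73.2, 82.0 and 63.6 CPM in iASPP KO and 68.0, 96.3 and 64.3 CPM in iASPP WT. Its log2 fold change was -0.05 (SE 0.12, 95% interval -0.32 to 0.22, adjusted p = 0.894), an interval that leaves out the change estimated for Cldn4. Cldn7, a claudin found along the sides of many epithelial cells, had 34, 24 and 35 counts in iASPP KO and 8, 34 and 25 in iASPP WT. The lowest count was that of iASPP WT in batch 1, and the log2 fold change of 0.63 carried an SE of 0.82 (adjusted p = 0.780). It was 0.027 without batch 1 and 1.17 without batch 2. Cldn8, known mainly from the kidney and colon as a claudin of tight epithelia, had 8, 34 and 35 counts in iASPP KO and 15, 10 and 109 in iASPP WT. The batches disagreed in direction, with log2 differences of -0.83, 1.70 and -1.65, and the fitted value of -0.35 (SE 0.89, adjusted p = 0.894) changed sign without batch 3. For Cldn7 and Cldn8 the 95% intervals, -1.20 to 2.47 and -2.32 to 1.61, are too wide at this depth to show a change of the size seen for Cldn4.

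Ocln, whose product occludin shares the strands with claudins, was at 109, 102 and 44.2 CPM in iASPP KO and 65.5, 93.7 and 62.1 CPM in iASPP WT. It was higher in iASPP KO in batches 1 and 2 and lower in batch 3, with log2 differences of 0.74, 0.13 and -0.49. Over all batches the log2 fold change was 0.13 (SE 0.20, 95% interval -0.31 to 0.56, adjusted p = 0.818). This value rested on which batch was included: without batch 3 it was 0.43 (adjusted p = 0.0180, past the threshold) and without batch 1 it was -0.17 (adjusted p = 0.849).

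Among the scaffolds, Tjp1, which encodes ZO-1 and binds claudin tails, was at 182, 209 and 103 CPM in iASPP KO and 160, 168 and 110 CPM in iASPP WT. The groups overlapped and the log2 fold change was 0.14 (SE 0.12, 95% interval -0.13 to 0.40, adjusted p = 0.651). Cgn, the cingulin gene, was at 65.9, 61.5 and 42.5 CPM in iASPP KO and 54.7, 62.5 and 33.0 CPM in iASPP WT. Its log2 fold change was 0.20 (SE 0.13, 95% interval -0.09 to 0.50, adjusted p = 0.519). Tjp3, which encodes ZO-3, had 30, 20 and 13 counts in iASPP KO and 20, 6 and 0 in iASPP WT. In batch 3 the 0 counts of iASPP WT allow up to 3 counts, or 0.134 CPM. The 13 counts of the iASPP KO library of that batch, 0.552 CPM, were 4.13 times that limit. This ratio makes no allowance for counting error in the 13 counts and is not a lower bound. The fitted log2 fold change of 1.95 depends on that empty library and was far from the threshold (SE 1.21, 95% interval -0.73 to 4.63, adjusted p = 0.486). Tjp3 and Apba3 share 40 exon bases on opposite strands, and the reads were counted by strand.

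**Figure D3:**
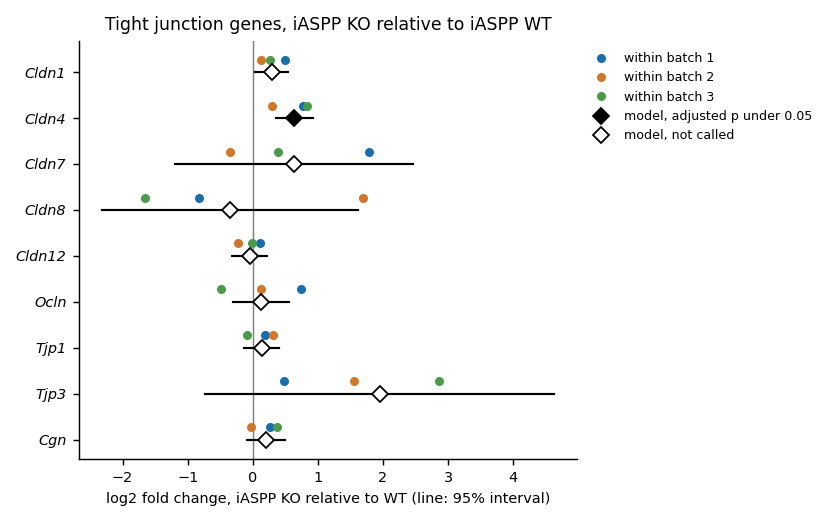
Log2 difference between iASPP KO and iASPP WT for each of the 9 genes, as estimated by the model (diamond, filled where the adjusted p is under 0.05) with its unadjusted 95% interval (line), and the difference within each batch (coloured points). Cldn4 is the only filled diamond at 0.64, and the intervals of Cldn7, Cldn8 and Tjp3 are much wider than those of the other 6 genes.

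Batch 3 held less of several of the abundant members than batch 1. Cldn1, Cldn4, Tjp1 and Cgn were called in the test between batches, 4 of 9 genes, beside 15.8% of all tested genes. Relative to batch 1, batch 3 differed by -1.09 for Cldn1 (SE 0.14, adjusted p = 0.000455) and by -1.0 for Cldn4 (SE 0.16, adjusted p = 0.000961) on the log2 scale. The scaffolds moved the same way, by -0.68 for Tjp1 (SE 0.15, adjusted p = 0.00877) and by -0.68 for Cgn (SE 0.16, adjusted p = 0.0218). Ocln was -0.69 (SE 0.24) and Cldn12 -0.14 (SE 0.15), and neither passed the joint test (adjusted p = 0.0660 and 0.105). For Cldn12 the larger difference was that of batch 2 from batch 1, 0.33 (SE 0.15). Cldn8 was the 1 gene with a large positive estimate, 2.53 with an SE of 1.02 (adjusted p = 0.226), and 109 of its counts came from iASPP WT of batch 3. Cldn7 (adjusted p = 0.890) and Tjp3 (adjusted p = 0.423) did not pass. The differentiation genes were also lower and the fibroblast markers higher in batch 3, with the values given above, and their part in the claudin and scaffold levels was not tested.

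**Figure D4:**
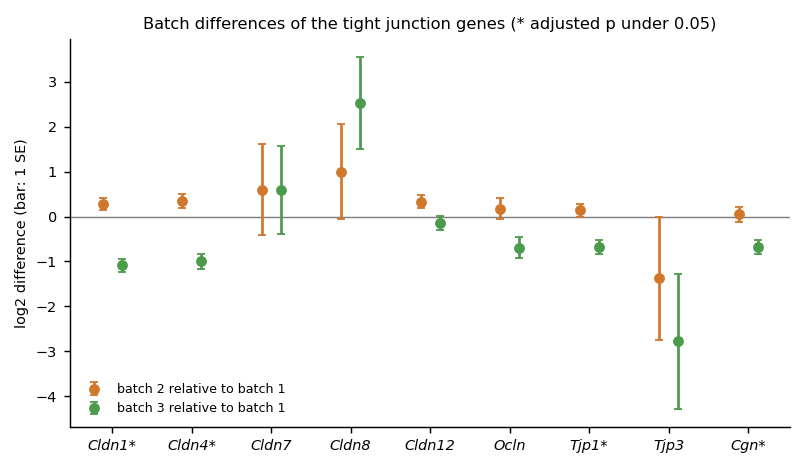
Log2 difference of batches 2 and 3 from batch 1 for each of the 9 genes, from the model with batch and genotype (bars, 1 SE). Cldn1, Cldn4, Tjp1 and Cgn, marked with an asterisk, are called between batches, with batch 3 between -1.09 and -0.68.

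Among the other claudins, Cldn3 was the single gene to pass, 1 of 2 tested, beside 2.17% of all tested genes called higher. Of 19 further claudins with a row, 2 had enough counts to be tested, 17 did not (at most 26 counts in any library), and 3 were at 0 in every library. Cldn3, a sealing claudin close to Cldn4 in sequence and on the same chromosome, was at 10.2, 16.1 and 14.9 CPM in iASPP KO and 3.14, 8.16 and 3.39 CPM in iASPP WT. The groups did not overlap, a separation that 10.7% of all tested genes had in either direction. The log2 fold change of Cldn3 was 1.59 (SE 0.28, adjusted p = 0.0142). At 7.40 CPM per kb over all libraries it was far less abundant than Cldn4. Cldn23, the other tested claudin, was at 1.61 ± 1.40 CPM in iASPP KO and 1.53 ± 0.31 CPM in iASPP WT (SD, n = 3 each; log2 fold change -0.22, SE 0.69, adjusted p = 0.917). The median of the 2 genes, 0.69, stands beside 0.01 for all tested genes.

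Of 9 tested genes for other tight junction membrane proteins 1 was called higher and none lower, beside 2.17% and 1.95% of all tested genes. The median log2 fold change was 0.13, with 1 higher and 0 lower by unadjusted p and 1 higher and 0 lower by DESeq2. The gene called was Crb3, which encodes an apical polarity protein, at 64.9, 75.6 and 32.0 CPM in iASPP KO and 44.3, 53.6 and 19.4 CPM in iASPP WT (log2 fold change 0.59, SE 0.13, adjusted p = 0.0341). The call was lost without batch 1 (adjusted p = 0.134) or batch 2 (adjusted p = 0.158). The most abundant of the list, Cxadr and F11r, encode cell adhesion proteins of the immunoglobulin type, and neither passed: -0.17 (SE 0.11, adjusted p = 0.508) for Cxadr and 0.21 (SE 0.12, adjusted p = 0.426) for F11r. Jam2, Esam and Igsf5 had too few counts to be tested.

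Of 32 plaque and polarity genes, all tested, 2 were called higher and 1 lower, beside 2.17% and 1.95% of all tested genes. The median log2 fold change was -0.03, with 6 higher and 2 lower by unadjusted p and 2 higher and 1 lower by DESeq2. Cgnl1, which encodes the cingulin relative paracingulin, was at 12.3, 19.1 and 12.8 CPM in iASPP KO and 5.34, 8.45 and 6.64 CPM in iASPP WT (log2 fold change 1.11, SE 0.22, adjusted p = 0.0222). Magi3, a scaffold with PDZ domains, was at 22.8, 20.7 and 14.6 CPM against 12.6, 4.92 and 8.33 CPM (1.23, SE 0.27, adjusted p = 0.0341). Mpdz, which encodes the many-PDZ scaffold MUPP1, went the other way, at 27.2, 19.3 and 30.5 CPM against 59.3, 40.2 and 49.0 CPM (-0.95, SE 0.15, adjusted p = 0.00837). For these 3 genes the groups did not overlap, a separation that 10.7% of all tested genes had in either direction. Prkci and Vasp of the same list, named after their values were seen, also separated. Both were lower in iASPP KO (log2 fold change -0.35 and -0.20) and not called. Cgnl1 lost its call without batch 1 (adjusted p = 0.0831) or batch 2 (adjusted p = 0.145), and Magi3 without batch 2 (adjusted p = 0.181).

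The adherens junction lies below the tight junction and links cadherins to actin. None of its 15 tested genes was called by edgeR, with 1 higher and 1 lower at an unadjusted p under 0.05, while DESeq2 called 1 higher and 1 lower, and the median log2 fold change was 0.05. Those were the same genes under both: Afdn (afadin) at 0.35 (edgeR adjusted p = 0.128, DESeq2 adjusted p = 0.0494) and Vcl (vinculin) at -0.40 (edgeR adjusted p = 0.0888, DESeq2 adjusted p = 0.0292), which are named after their values were seen. Its most abundant genes, Jup (plakoglobin) and Ctnnb1 (β-catenin), differed by 0.07 (SE 0.11, adjusted p = 0.822) and 0.05 (SE 0.10, adjusted p = 0.863). Of 24 tested regulators of epithelial tight junctions 1 was called higher and none lower, beside 2.17% and 1.95% of all tested genes. By unadjusted p 6 were higher and 2 lower, and by DESeq2 2 higher and 0 lower, with a median log2 fold change of 0.12. The called gene was Prss8, which encodes the membrane protease prostasin, needed for the epidermal barrier, at 71.9, 102.9 and 32.7 CPM in iASPP KO and 38.9, 73.1 and 16.3 CPM in iASPP WT (0.79, SE 0.14, adjusted p = 0.0147). It too lost its call without batch 1 (adjusted p = 0.0575). The most abundant, St14 (the protease matriptase) and Ehf (an ETS factor), gave 0.07 (SE 0.11, adjusted p = 0.826) and 0.37 (SE 0.13, adjusted p = 0.176), and Snai1 had too few counts. The second gene that DESeq2 called was Tfap2a, which encodes the factor AP-2α, at 0.59 in edgeR (adjusted p = 0.0747) against an adjusted p of 0.0447 in DESeq2, and it too is named after its values were seen. Without the batch term none of the calls in these lists held (adjusted p from 0.973 to 0.977).

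**Figure D5:**
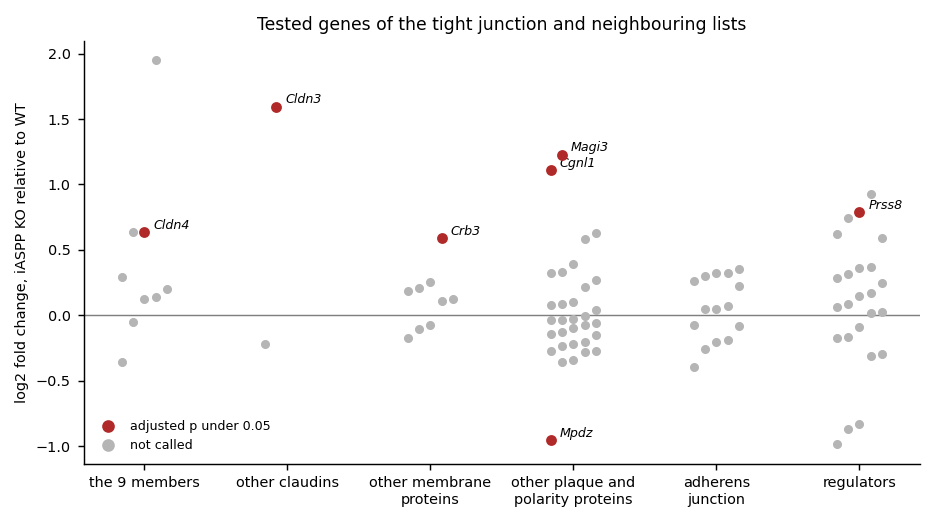
Log2 difference between iASPP KO and iASPP WT for every tested gene of the 9 members, the other claudins, other membrane proteins, plaque and polarity proteins, adherens junction and regulators, with horizontal offsets for legibility only. The 7 named red points passed at an adjusted p under 0.05, and 6 of them, all but Mpdz at -0.95, lie above 0.

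Over the 6 libraries, the genes whose log2 CPM tracked Cldn4 most closely were Sun2, which encodes a protein of the inner nuclear membrane (Pearson's r = 0.997), and Gm41724 (r = 0.996), among 10147 genes with a mean of at least 5 CPM. The 6 points share batch and genotype, so this is a description. Sun2 had a log2 fold change of 0.35 (adjusted p = 0.148) and Gm41724 of 1.24 (adjusted p = 0.0829).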

How the data were processed

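Ribosomal-RNA-depleted total RNA of 6 keratinocyte libraries was sequenced as single reads of 42 bases. According to the submitters' processing notes and the file header, the authors trimmed reads with cutadapt 2.10, aligned them to mm10 with STAR 2.7.3 and counted uniquely mapped reads over exons per gene name, by strand, with featureCounts 2.0.0. The deposited table holds these raw counts per gene. Its authors' table of fold changes and p-values was not used. Depth was 20202517 to 25157117 counts, and counting error alone is covered by the limit of 3 counts given for a count of 0.

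Groups and batches came from the labels. Genes were filtered with filterByExpr by group, scaled by TMM and tested with edgeR 4.0.16 (R 4.3.3) by quasi-likelihood with batch and genotype, at a Benjamini-Hochberg adjusted p under 0.05 over all 14916 tested genes. Differences within a batch used log2 CPM with a prior count of 2, and levels per kb the table's exon length. Pairing by batch is given by the labels. Deviations from the group means correlated at 0.629, 0.725 and 0.774 for libraries of the same batch, and at -0.68 to 0.317 for those of different batches. DESeq2 1.42.0, other scalings, filters and dispersions, no batch term and leaving out each batch were the alternatives. Replicates differed beyond sampling noise (chi-square of 40.1 to 169 per gene).

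The 9 genes and all lists were chosen with earlier results of these data known. From the other lists, genes past the threshold were named (at most 5), or, where fewer than 2 passed, the 2 most abundant tested genes, as were untested genes where a list had 5 or fewer, and the 2 genes most like each member that passed. Of the 42-base windows of the longest GENCODE vM21 transcript, 21.9% for Cgn also occur in BC021767, and 0% for the other 8 members.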

Additional observations from a re-analysis of the deposited data

How the results depend on the processing

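Of 147 values of named genes under alternatives, 129 kept their direction and side of the threshold, 14 lost a call, 1 gained one and 3 changed sign. The number of members called higher was 1 under DESeq2, both other scalings, both other filters and robust dispersion, 0 with no replicate block (batch pairing), where no gene of the table was called, and 0 to 2 when a batch was left out: 0 without batch 1, and 2 (Cldn4 and Ocln) without batch 3. No member was called lower under any of these. Leaving out a batch moved the log2 fold change from -1.38 to 0.49 for Cldn8, from -0.121 to 0.049 for Cldn12 and from -0.17 to 0.43 for Ocln, with a change of sign for each, and the cause was not tested. Without a change of sign it ranged from 0.027 to 1.17 for Cldn7, from 1.14 to 3.12 for Tjp3, from 0.053 to 0.25 for Tjp1, from 0.12 to 0.32 for Cgn, from 0.19 to 0.38 for Cldn1 and from 0.53 to 0.81 for Cldn4. Members called between batches were 4, and 5 with DESeq2 or without a filter, Ocln being added. By the length of the longest GENCODE vM21 transcript in place of all exons, which is shorter for Cldn1, the Cldn4 to Cldn1 ratio was 3.41 in iASPP KO and 2.68 in iASPP WT. Calls over all genes were 323 higher and 291 lower, against 624 and 491 without a filter and 793 and 662 without batch 3, but 169 and 151 without batch 1 and 174 and 117 without batch 2. DESeq2 gave no adjusted p for Tjp3. Counts of at most 109 limit Cldn7, Cldn8 and Tjp3, whose intervals span both directions.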
